A study of Mus musculus with 13 samples.

Results

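RNA-seq of LPS-activated macrophages was examined for 40 genes of the cell cycle and of DNA replication. The genes were listed by symbol, and each was represented by its RefSeq transcript with the highest total count. All 40 of the 40 passed the filter on low counts, out of 24445 genes with a symbol in the count table, of which 11942 passed. By their textbook roles, the genes were placed in 6 groups: 4 G1 cyclins and kinases, 5 cyclins, kinases and E2F factors of the step from G1 to S phase, 9 genes of origin licensing, 4 genes of DNA synthesis and nucleotide supply, 14 genes of mitosis, and 4 inhibitors.

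The cells were bone marrow-derived macrophages (BMDMs) of female mice, grown from marrow in L929-conditioned medium, which supplies the growth factor M-CSF. Control mice carried loxP-flanked *Acly* alleles (Acly fl/fl), and Acly M-KO mice carried the same alleles with Cre made from *Lyz2*, a gene of myeloid cells. *Acly* encodes ATP citrate lyase, which makes acetyl-CoA from citrate in the cytosol. Both genotypes were given LPS, a component of the outer membrane of Gram-negative bacteria, for 3 h or 24 h, and no untreated library was analysed here. The labels do not say whether the replicates came from separate mice or cultures, so p-values measure the spread between these libraries, which may be technical.

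Each of the 4 groups entered with 3 libraries. These 12 libraries held 21274102 to 59577343 counts, and 1 count stood for 0.0153 to 0.0512 CPM (counts brought to 1 common library size by TMM). A further control library at 24 h, replicate 1, held 34467 counts, so that 1 count stood for 22.4 CPM there, and it was left out. *Acly* itself was at 105, 107 and 106 CPM in the control libraries and at 37.7, 46.2 and 41.5 CPM in Acly M-KO after 3 h LPS. After 24 h LPS it was at 113, 109 and 107 CPM in control and at 30.1, 30.5 and 29.1 CPM in Acly M-KO, so that 27.2% of the control level was left by the fit (39.5% after 3 h). All 8 of the 8 macrophage markers examined passed the filter in these cultures, and erythroid markers were at or near 0.

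In textbook terms, mitogens such as M-CSF induce D-type cyclins, which with Cdk4 and Cdk6 phosphorylate the retinoblastoma protein and release E2F factors. E2F factors switch on cyclin E and the genes that license origins and supply nucleotides, and a later wave of genes, under the DREAM and B-Myb-FoxM1 complexes, drives mitosis. Cdk inhibitors such as p21 hold these kinases back, and macrophages that meet LPS are known to leave the cycle.

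After 24 h LPS the genes of mitosis and of DNA synthesis were several-fold lower than after 3 h in both genotypes. *E2f1*, *E2f2* and *Ccne1* were higher in both, and the Cdk inhibitor *Cdkn1a* was lower. The 14 genes of mitosis summed to 229, 235 and 257 CPM in the control libraries after 3 h LPS and to 48.6, 52.0 and 47.9 CPM after 24 h. In Acly M-KO BMDMs the same sum was 230, 253 and 235 CPM after 3 h and 56.2, 46.6 and 48.0 CPM after 24 h. The sums of the groups of G1, licensing, DNA synthesis, mitosis and inhibitors were lower in every library at 24 h than in any library at 3 h, and the sum of the G1/S group was higher. Such sums follow their most abundant members. In control after 3 h, *Cdkn1a* had a mean of 1030 CPM beside a median inhibitor sum of 1080 CPM. *Mki67* had 129 CPM beside 235 for mitosis, and *Pcna* 67.4 CPM beside 104 for DNA synthesis. *Cdk6* and *Ccnd2* had 259 and 209 CPM beside 561 for G1. The inhibitor *Cdkn1b* was higher at 24 h in both genotypes.

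**Figure D1:**
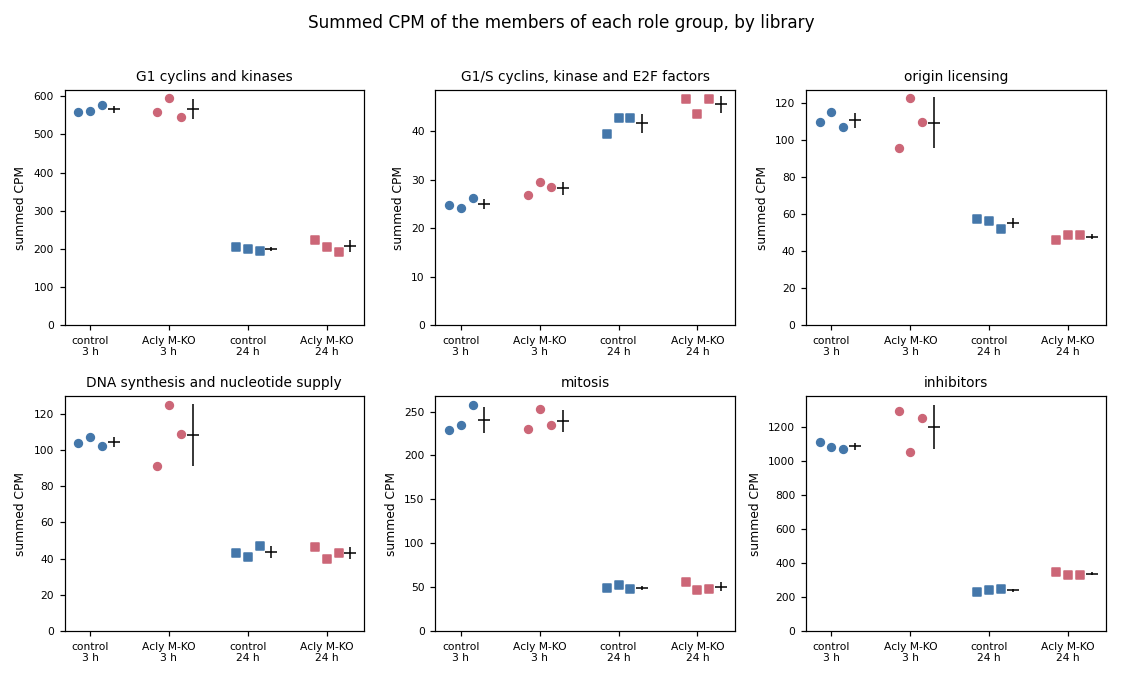
Summed CPM of the members of each role group (vertical axes, linear from 0) in 12 libraries, as points by genotype and LPS time on the horizontal axis, with the mean and SD over 3 libraries as a black cross and bar. The 24 h libraries lie below the 3 h libraries in 5 panels and above them in the G1/S panel, where the sums were 24.1 to 29.5 CPM after 3 h and 39.4 to 46.6 CPM after 24 h. The inhibitor sum is mostly that of *Cdkn1a*.

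Changed genes had to pass 2 limits, 0.05 for the adjusted p and 0.75 for the size of the log2 fold change, in edgeR's quasi-likelihood test with Benjamini-Hochberg adjustment over all transcripts tested. In control BMDMs, 33 of 40 members changed between 3 h and 24 h, 29 lower and 4 higher, while 40.4% of all genes tested changed (19.5% lower and 20.9% higher). In Acly M-KO BMDMs, 31 members changed, 28 lower and 3 higher, beside 42.0% of all genes (20% lower and 21.9% higher). The median log2 fold change of the members was -1.56 in control and -1.54 in Acly M-KO BMDMs, against 0.04 over all genes in each. The times did not overlap for 7 members upward and 33 downward in control, beside 77.5% of all genes (4808 upward and 4450 downward). In Acly M-KO they did not overlap for 5 members upward and 32 downward, beside 76.8% of all genes (4789 upward and 4380 downward). In bulk RNA, fewer dividing cells and less RNA of these genes per cell cannot be told apart, nor can the duration of LPS and the time in culture. Markers of other cells also moved with time: the 8 neutrophil markers summed to 11.7 to 15.3 CPM after 3 h and 3.44 to 4.69 CPM after 24 h over both genotypes, with *Ly6g* at 0 throughout, and the 7 bone marrow progenitor markers, mostly *Kit*, to 2.33 to 6.38 CPM and 0.748 to 1.5 CPM. The T and NK cell list summed to 13.6 to 25.7 CPM and 5.26 to 10.1 CPM, nearly all of it *Cd4*. Its other 6 genes summed to at most 0.29 CPM. The fibroblast list, mostly *Dcn* at 24 h, was higher at the later time, at 0 to 0.7 CPM and 0.804 to 1.35 CPM. Macrophage markers moved too, and 5 of the 8 changed in each genotype. By the adjusted p alone, 2 were higher and 5 lower at 24 h in each. The 8 summed to 9980 to 10100 CPM after 3 h and 6030 to 6330 CPM after 24 h in control. In Acly M-KO they summed to 6920 to 7850 CPM and 4520 to 4630 CPM. The part of these lists in the result was not tested.

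**Figure D2:**
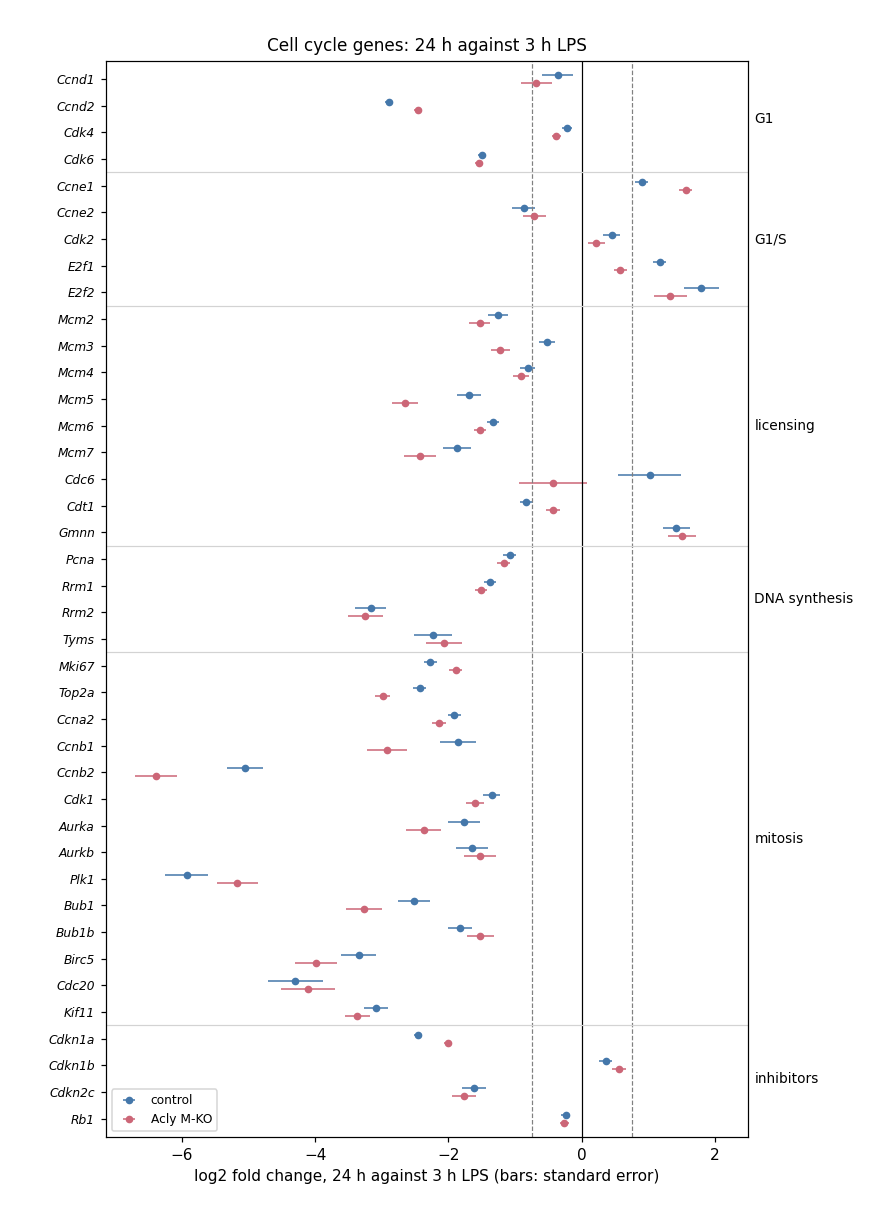
Log2 fold change of each of the 40 members between 24 h and 3 h LPS (horizontal axis) in control and Acly M-KO BMDMs, with bars for the standard error and dashed lines at -0.75 and 0.75. All 14 genes of mitosis and all 4 of DNA synthesis lie left of the lower dashed line in both genotypes, and *Ccne1*, *E2f2* and *Gmnn* lie right of the upper line in both.

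Among the G1 genes, *Ccnd2* and *Cdk6* fell in both genotypes, and *Ccnd1* and *Cdk4* did not pass both limits. *Ccnd2*, cyclin D2, was at 216, 195 and 215 CPM in control and 175, 163 and 164 CPM in Acly M-KO libraries after 3 h, and at 29.1, 26.6 and 28.3 CPM and 29.3, 32.7 and 29.5 CPM after 24 h. The times did not overlap in either genotype, and the log2 fold change was -2.89 (SE 0.06, adjusted p = 2.69e-27 by edgeR) in control and -2.46 (SE 0.06, adjusted p = 2.01e-25) in Acly M-KO. *Cdk6*, a partner kinase of D-type cyclins, went from 246, 261 and 269 CPM to 93.1, 95.5 and 86.5 CPM in control and from 291, 278 and 271 CPM to 103, 95.6 and 90.8 CPM in Acly M-KO, a log2 fold change of -1.5 (SE 0.06) and -1.54 (SE 0.06). *Ccnd1*, cyclin D1, was at 66.2 to 76.0 CPM in control after 3 h and 52.9 to 58.1 CPM after 24 h, with a log2 fold change of -0.36 (SE 0.23, adjusted p = 0.181). In Acly M-KO it was at 64.9, 124 and 83.0 CPM after 3 h, the widest spread among the G1 genes, and at 48.2 to 69.3 CPM after 24 h, with a log2 fold change of -0.68 (SE 0.23, adjusted p = 0.0232). *Cdk4* had log2 fold changes of -0.22 (SE 0.07) and -0.38 (SE 0.07), which passed the adjusted p and not the fold limit.

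The G1/S group went the other way in most members. *E2f1*, which encodes the activator E2F of S phase genes, was at 6.16, 6.97 and 8.98 CPM in control after 3 h and at 16.6, 16.9 and 16.3 CPM after 24 h. In Acly M-KO it was at 8.30, 9.71 and 9.62 CPM and then at 13.8, 13.6 and 14 CPM. The times did not overlap in either genotype; the log2 fold change was 1.17 (SE 0.10, adjusted p = 1.35e-11 by edgeR) in control and 0.58 (SE 0.10, adjusted p = 9.04e-06) in Acly M-KO, the latter short of the fold limit. *E2f2*, another activator E2F, rose from 0.397 to 0.842 CPM in control and from 0.717 to 1.22 CPM in Acly M-KO at 3 h to 2.09 to 2.89 CPM over both genotypes at 24 h, with log2 fold changes of 1.8 (SE 0.26) and 1.33 (SE 0.25). *Ccne1*, cyclin E1, rose by a log2 fold change of 0.90 (SE 0.10, adjusted p = 5e-09) in control and 1.56 (SE 0.10, adjusted p = 1.33e-14) in Acly M-KO. Its relative *Ccne2* had the opposite sign, with -0.87 (SE 0.17) in control, where it fell, and -0.71 (SE 0.17) in Acly M-KO, and *Cdk2*, the kinase partner of both, had 0.45 (SE 0.13) and 0.22 (SE 0.13).

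In the licensing group, 6 of 9 genes fell and 1 rose in each genotype. The Mcm2 to Mcm7 proteins form the ring that is loaded onto origins and later unwinds DNA, Cdc6 and Cdt1 load it, and geminin (*Gmnn*) blocks Cdt1. *Mcm7* was at 4.37, 5.66 and 4.34 CPM in control after 3 h and at 1.15, 1.36 and 1.36 CPM after 24 h, and at 3.33, 6.17 and 4.66 CPM and 1.13, 0.885 and 0.614 CPM in Acly M-KO. The times were apart in both, with log2 fold changes of -1.87 (SE 0.21, adjusted p = 3.4e-09 by edgeR) and -2.43 (SE 0.24, adjusted p = 1.82e-10). *Mcm7* holds the genes of 3 microRNAs, Mir25, Mir93 and Mir106b, on the same strand, and the counts cannot separate them from it. *Mcm2*, *Mcm4*, *Mcm5* and *Mcm6* fell in both genotypes, by log2 fold changes of -0.81 to -1.69 in control and -0.91 to -2.65 in Acly M-KO. *Mcm3* had -0.52 (SE 0.12) in control, short of the fold limit, and fell in Acly M-KO, with -1.22 (SE 0.14). *Cdt1* fell in control, with -0.83 (SE 0.10), and had -0.43 (SE 0.10) in Acly M-KO. *Gmnn*, at 1.34, 1.5 and 1.84 CPM in control after 3 h and 3.94, 3.33 and 4.92 CPM after 24 h, rose by 1.42 (SE 0.20) there and by 1.51 (SE 0.21) in Acly M-KO. *Cdc6* was at 0.150 to 0.597 CPM in all 12 libraries and is too low for a firm value, with 1.02 (SE 0.47, adjusted p = 0.0508) in control and -0.43 (SE 0.51, adjusted p = 0.452) in Acly M-KO.

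Promoters of the licensing genes are shown for the letters they share. RefSeq windows from 250 bases before to 50 bases after the start, on GRCm38.p6, were at hand for 32 of the 40 members, and for 7 of the 9 licensing genes. An E2F motif, searched on both strands as TTTCGCGC, TTTGGCGC, TTTCCCGC or TTTGCCGC, was in 6 of these 7 (85.7%), against 4.8% of the genes tested that had a window and 2.6% of all genes with one. A CCAAT box, which nuclear factor Y binds, was in 71.4% of the 7, against 43.1% of the genes tested and 41.1% of all. The 170 bases before the start are printed for 3 of them in the direction of the gene, in lower case with matches to these motifs, or their reverse complements, in capitals. The 3 stretches lie at chr1:20820313-20820482 on the minus strand (*Mcm3*), chr8:75109339-75109508 on the plus strand (*Mcm5*) and chr1:128359706-128359875 on the minus strand (*Mcm6*). In *Mcm5* and *Mcm6* a stretch of capitals of 12 bases holds an E2F motif on each strand, which overlap. Both E2F motifs of *Mcm3* start after the gene's start, at positions 20 and 39, and so are not in the printed stretch.
Mcm3: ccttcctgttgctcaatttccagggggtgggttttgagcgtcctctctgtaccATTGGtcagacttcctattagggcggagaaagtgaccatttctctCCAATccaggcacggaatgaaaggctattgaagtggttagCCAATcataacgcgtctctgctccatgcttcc
Mcm5: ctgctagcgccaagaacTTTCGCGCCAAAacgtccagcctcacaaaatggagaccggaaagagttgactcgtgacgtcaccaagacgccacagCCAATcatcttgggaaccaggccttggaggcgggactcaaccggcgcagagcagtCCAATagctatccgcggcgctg
Mcm6: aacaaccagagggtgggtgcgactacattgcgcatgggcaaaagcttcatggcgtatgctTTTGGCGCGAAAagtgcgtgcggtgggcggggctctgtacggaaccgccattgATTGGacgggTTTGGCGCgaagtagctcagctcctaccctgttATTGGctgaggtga

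All 4 genes of DNA synthesis and nucleotide supply fell in both genotypes. *Rrm2*, the small subunit of ribonucleotide reductase, which makes deoxynucleotides, was at 6.40, 7.58 and 6.88 CPM in control after 3 h and at 1.02, 0.597 and 0.733 CPM after 24 h. It was at 3.94, 7.22 and 5.77 CPM and then at 0.863, 0.362 and 0.537 CPM in Acly M-KO, with log2 fold changes of -3.17 (SE 0.23, adjusted p = 6.04e-13 by edgeR) and -3.25 (SE 0.26, adjusted p = 5.78e-12). The groups were apart by time, and the genotypes overlapped at both times. *Tyms*, thymidylate synthase, had -2.23 (SE 0.28) and -2.06 (SE 0.27), *Rrm1*, the large subunit, -1.37 (SE 0.09) and -1.51 (SE 0.09), and *Pcna*, the sliding clamp of the polymerases, -1.08 (SE 0.10) and -1.17 (SE 0.10) in control and Acly M-KO.

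The genes of mitosis fell in full, 14 of 14 in each genotype, with a median log2 fold change of -2.35 in control and -2.95 in Acly M-KO. *Plk1*, Polo-like kinase, was at 4.96, 3.98 and 4.74 CPM in control after 3 h and at 0, 0.0426 and 0.107 CPM after 24 h, where the libraries held 0, 1 and 7 counts. In Acly M-KO it went from 4.51, 5.34 and 4.57 CPM to 0.150, 0.161 and 0.0768 CPM (4, 4 and 2 counts). *Ccnb2*, cyclin B2, went from 6.65, 6.41 and 8.53 CPM to 0.205, 0.256 and 0.199 CPM in control and from 7.17, 9.49 and 10.4 CPM to 0.225, 0.0804 and 0 CPM in Acly M-KO. *Cdc20*, which activates the anaphase-promoting complex, was at 1.59 to 2.45 CPM in the 3 h libraries and at 0.0305 to 0.164 CPM in the 24 h libraries. These 3 genes were near the lowest level that can be read at 24 h, so that their log2 fold changes, -5.93 (SE 0.32), -5.05 (SE 0.27) and -4.30 (SE 0.41) in control and -5.17 (SE 0.31), -6.39 (SE 0.32) and -4.11 (SE 0.40) in Acly M-KO, rest on few counts.

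*Mki67*, the proliferation antigen Ki-67, and *Top2a*, the topoisomerase that untangles sister chromatids, kept the most counts of the 14 genes after 24 h. *Mki67* was at 119, 122 and 147 CPM in control after 3 h and at 26.6, 27.6 and 26.3 CPM after 24 h, and at 127, 111 and 111 CPM and 36.6, 28.7 and 28.6 CPM in Acly M-KO. Its log2 fold change was -2.27 (SE 0.10, adjusted p = 3.92e-12 by edgeR) in control and -1.89 (SE 0.10, adjusted p = 4.17e-11) in Acly M-KO, so that about 20.7% and 26.9% of the 3 h level was left by the fit. *Top2a* was at 35.6, 38.5 and 38.8 CPM in control after 3 h and at 7.5, 7.63 and 6.31 CPM after 24 h, and at 36.4, 50.4 and 43.2 CPM and 5.44, 5.35 and 5.64 CPM in Acly M-KO, with log2 fold changes of -2.43 (SE 0.10) and -2.99 (SE 0.11). Both genes were apart by time in both genotypes. *Birc5* (survivin), *Kif11* (the kinesin Eg5) and *Bub1* (a kinase of the spindle checkpoint) had log2 fold changes of -3.35 (SE 0.26), -3.09 (SE 0.18) and -2.52 (SE 0.24) in control, and -3.99 (SE 0.31), -3.37 (SE 0.19) and -3.27 (SE 0.27) in Acly M-KO. The smallest falls of the group were those of *Cdk1*, the mitotic kinase, in control (-1.35, SE 0.13), and of *Bub1b* (-1.52, SE 0.20), of the spindle checkpoint, and *Aurkb* (-1.52, SE 0.24), Aurora B kinase, in Acly M-KO. *Ccna2* (cyclin A2), *Ccnb1* (cyclin B1) and *Aurka* (Aurora A kinase) had -1.91 (SE 0.10), -1.85 (SE 0.27) and -1.77 (SE 0.24) in control.

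The promoters of the mitosis genes had the CCAAT box in common with those of the licensing genes, and differed from them in the share with other motifs. A cell cycle homology region (CHR), searched as TTTGAA on both strands, was in 9 of the 12 mitosis genes with a window (75.0%), against 14.3% of the genes tested and 20.2% of all genes with a window, and in 1 of the 7 licensing genes. A CCAAT box was in 11 of the 12 (91.7%), and an E2F motif in 1, *Cdk1*. Among 32 members with a window, the 11 with a CHR had median log2 fold changes of -2.27 in control and -2.37 in Acly M-KO. For the 21 without one they were -1.37 and -1.52. By E2F motif the split went the other way, with -0.83 and -1.22 for 9 members with one. The 23 without an E2F motif had -1.85 and -2.0. No E2F motif was in the 4 genes of DNA synthesis, which all fell. These medians are given as a description, since motif and role go together. The 170 bases before the start are printed for *Ccnb2* (chr9:70421555-70421724, minus strand), *Cdk1* (chr10:69352913-69353082, minus strand) and *Cdc20* (chr4:118437344-118437513, minus strand), with CHR, CCAAT and E2F matches in capitals. All 3 hold at least 1 CHR and 2 CCAAT boxes in the printed stretch, and *Ccnb2* holds a further CHR at position 5 after the start. These matches are letters in a window, and the binding of a factor was not measured. The printed genes were chosen after the positions of the matches had been seen.
Ccnb2: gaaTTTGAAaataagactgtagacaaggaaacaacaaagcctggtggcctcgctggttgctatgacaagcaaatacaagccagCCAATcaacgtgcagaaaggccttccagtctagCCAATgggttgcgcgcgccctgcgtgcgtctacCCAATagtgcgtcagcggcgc
Cdk1: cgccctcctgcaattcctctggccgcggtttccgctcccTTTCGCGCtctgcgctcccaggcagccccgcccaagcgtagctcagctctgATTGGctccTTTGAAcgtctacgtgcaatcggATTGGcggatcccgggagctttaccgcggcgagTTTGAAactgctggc
Cdc20: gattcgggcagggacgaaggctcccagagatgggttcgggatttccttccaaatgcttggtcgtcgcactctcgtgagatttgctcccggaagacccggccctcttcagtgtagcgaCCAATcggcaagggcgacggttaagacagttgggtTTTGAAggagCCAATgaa

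Of the 4 inhibitors, *Cdkn1a* and *Cdkn2c* fell with time and *Cdkn1b* and *Rb1* stayed within the fold limit. *Cdkn1a*, which encodes p21, was at 1050, 1030 and 1020 CPM in control after 3 h and at 180, 193 and 195 CPM after 24 h. In Acly M-KO it was at 1230, 991 and 1190 CPM and then at 293, 281 and 278 CPM. The times did not overlap, and the log2 fold change was -2.45 (SE 0.06, adjusted p = 6.61e-23 by edgeR) in control and -2.0 (SE 0.06, adjusted p = 4.71e-21) in Acly M-KO. *Cdkn2c* (p18, an inhibitor of Cdk4 and Cdk6) went from 7.94, 7.53 and 6.48 CPM to 2.01, 2.81 and 2.34 CPM in control and from 6.35, 11.3 and 10.5 CPM to 2.55, 2.53 and 3.26 CPM in Acly M-KO, with log2 fold changes of -1.62 (SE 0.18) and -1.76 (SE 0.18). *Cdkn1b* (p27) was at 9.77 to 12.7 CPM in the 3 h libraries and 13.6 to 17.3 CPM in the 24 h libraries, a log2 fold change of 0.36 (SE 0.10) and 0.56 (SE 0.10). *Rb1*, the retinoblastoma protein, had -0.24 (SE 0.07) and -0.26 (SE 0.07).

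Other genes of the pathway, listed by the same roles, moved in both directions with time. Of these 114 genes, 113 passed the filter, and 53 fell (46.9%) and 13 rose (11.5%) in control BMDMs, beside 19.5% and 20.9% of all genes. In Acly M-KO 53 fell (46.9%) and 14 rose (12.4%), beside 20% and 21.9% of all genes. Among 39 mitosis genes tested, 30 fell in control (76.9%) and 31 in Acly M-KO (79.5%), with the largest falls in *Ube2c*, a ubiquitin-conjugating enzyme of the anaphase-promoting complex (-5.86, SE 0.24, and -5.41, SE 0.23), in *Kif4*, a chromosome kinesin (-5.04, SE 0.21, in control), and in *Pbk*, a mitotic kinase (-4.94, SE 0.41, and -6.15, SE 0.50). *Spc24*, of the kinetochore, had -5.02 (SE 0.56) in Acly M-KO. All 4 were near the counting limit at 24 h, with 0 to 21 counts in a library. Among 37 replication genes, 12 fell (32.4%) and 4 rose (10.8%) in control, and 13 fell (35.1%) and 3 rose (8.11%) in Acly M-KO. The largest rises were those of *Sesn2*, a stress-induced sestrin, by 2.94 (SE 0.13) and 2.07 (SE 0.11), of *Cdkn2b* (the inhibitor p15), by 2.5 (SE 0.33) and 2.30 (SE 0.29), and of *Gins3*, of the replicative helicase, by 1.98 (SE 0.26) and 1.89 (SE 0.24) in control and Acly M-KO.

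The comparison of Acly M-KO with control BMDMs after 3 h LPS asked whether these genes differed by genotype early in activation. The genotypes differ in Cre as well as in *Acly*, and the design cannot tell these apart at either time. None of the 40 members changed by the limits in edgeR's quasi-likelihood test, beside 2.01% of all genes tested; DESeq2 gave 0 as well, and 7 members (17.5%) had an unadjusted p under 0.05, beside 28.0% of all genes. The median log2 fold change of the members was 0.10, with 28 above and 12 below 0, against -0.01 over all genes. *Ccnd2* alone passed the adjusted p: its 3 Acly M-KO libraries (163 to 175 CPM) lay below its 3 control libraries (195 to 216 CPM), with a log2 fold change of -0.32 (SE 0.05, adjusted p = 1.26e-04), and 15.4% of all genes passed the adjusted p alone. The groups were apart for 4 members, beside 30.1% of all genes: *Cdk6* and *Ccnb1* were higher (15.4% of all genes were apart upward) and *Ccnd2* and *Bub1b* lower (14.7%) in Acly M-KO. *Ccnb1* was at 3.07, 3.94 and 3.27 CPM in Acly M-KO and at 2.83, 2.71 and 1.75 CPM in control, with a log2 fold change of 0.50 (SE 0.23, adjusted p = 0.152).

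Among the 3 Acly M-KO libraries at 3 h, replicate 2 was the highest in 27 of the 40 members (67.5%), and in 10 of the 14 of mitosis, while it was the highest in 38.2% of all genes. Replicate 1 was the lowest in 27 members, for which no share over all genes was taken. The licensing group, for instance, summed to 95.6, 123 and 110 CPM in these libraries and to 110, 115 and 107 CPM in control. Marker sums also differed between the genotypes at this time. The progenitor markers summed to 4.42 to 6.38 CPM in Acly M-KO and 2.33 to 3.09 CPM in control, of which *Kit* made up 4.04 to 5.64 CPM and 2.13 to 2.79 CPM, while *Mpo* and *Elane* were at 0.175 CPM or less. The 8 macrophage markers summed to 6920 to 7850 CPM in Acly M-KO and 9980 to 10100 CPM in control, of which *Lyz2*, the gene whose promoter drives the Cre, made up 2270 to 2940 CPM and 5220 to 5270 CPM. Without *Lyz2* the other 7 summed to 4640 to 4910 CPM and 4720 to 4860 CPM, which overlapped. By the adjusted p alone, 1 of the 8 was higher in Acly M-KO (*Adgre1*, 0.24, SE 0.05) and 4 lower (*Lyz2*, *Mertk*, *Fcgr1* and *Cd14*). The T and NK cell list summed to 13.6 to 18 CPM in Acly M-KO and 23.6 to 25.7 CPM in control, nearly all of it *Cd4* (-0.58, SE 0.09), and its other 6 genes to at most 0.248 CPM. Their part in the result was not tested. Leaving out any 1 library gave 0 changed members in each case.

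**Figure D3:**
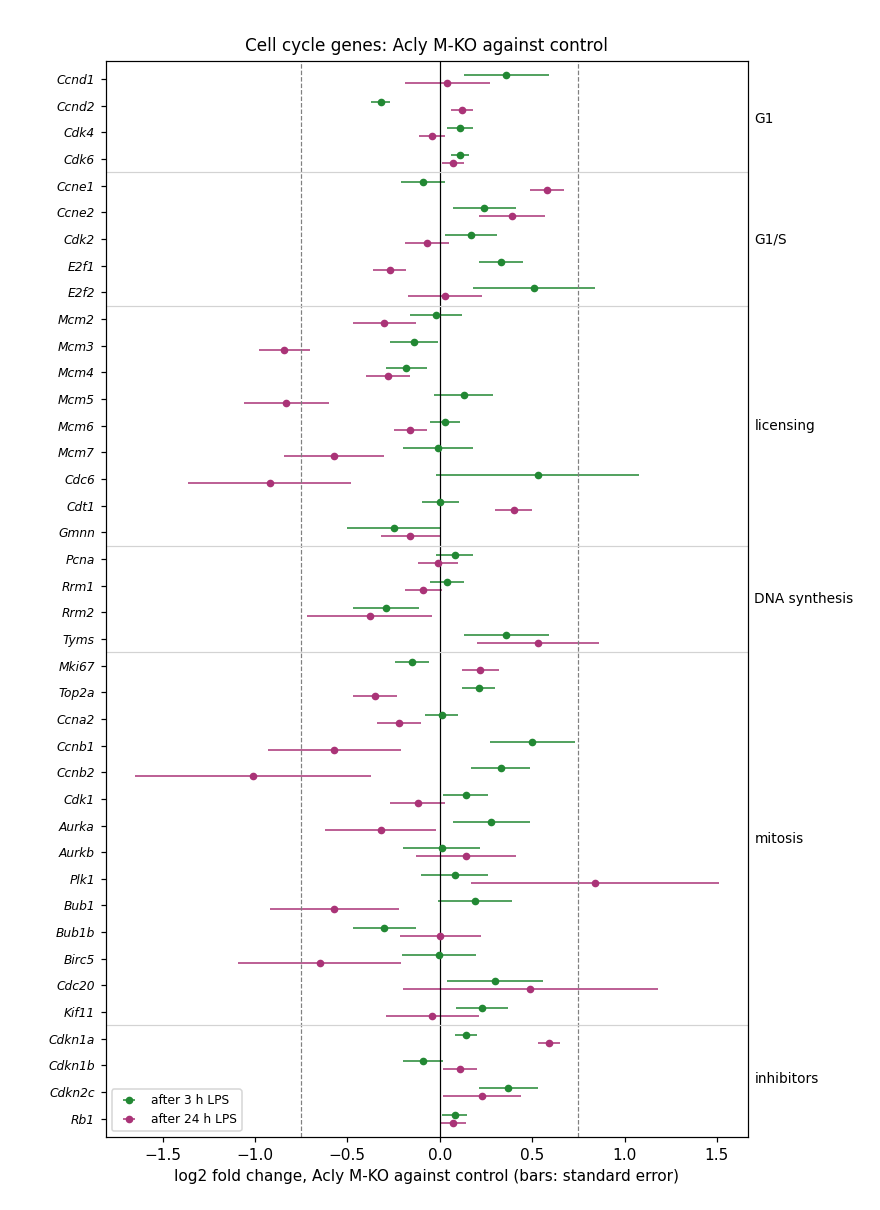
Log2 fold change of each of the 40 members in Acly M-KO against control BMDMs (horizontal axis) after 3 h and after 24 h LPS, with bars for the standard error and dashed lines at -0.75 and 0.75. After 3 h no member reaches a dashed line, and after 24 h *Mcm3* and *Mcm5* lie beyond the lower one with standard errors of 0.14 and 0.23, while *Cdc6*, *Ccnb2* and *Plk1* lie beyond a line with standard errors of 0.44 to 0.67.

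After 24 h LPS, *Mcm3* and *Mcm5* were lower in Acly M-KO than in control BMDMs, and *Cdkn1a*, *Ccne1* and *Cdt1* were higher by a smaller margin. The 2 Mcm genes were the members that changed by both limits (2 of 40, both lower), beside 1.38% of all genes, of which 0.486% of all were lower and 0.896% higher. *Mcm3* was at 7.67, 8.31 and 7.12 CPM in control and at 3.79, 4.91 and 4.11 CPM in Acly M-KO. The groups did not overlap, and the log2 fold change was -0.84 (SE 0.14, adjusted p = 6.61e-05 by edgeR), or 56.0% of the control level. *Mcm5* was at 4.67, 4.01 and 3.37 CPM in control and at 1.8, 2.41 and 2.38 CPM in Acly M-KO, also apart, with a log2 fold change of -0.83 (SE 0.23, adjusted p = 0.0233). The value of *Mcm5* was -0.70 and -0.89 without Acly M-KO replicate 1 or 3, and -0.71 and -0.81 without control replicate 2 or 3, and was not past the limits in any of these 4 fits.

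The other licensing genes leaned the same way in sign, except *Cdt1*. Of the 9, 8 had a negative log2 fold change, with a median of -0.30 against 0.01 over all genes, and 6 had all Acly M-KO libraries below all control libraries, beside 14.9% of all genes that were apart in this direction. Over all 40 members, 6 were apart upward and 10 downward, or 40.0%, beside 33.0% of all genes (18.2% upward), so the share of the whole set was near the background. *Mcm7* was at 1.15, 1.36 and 1.36 CPM in control and at 1.13, 0.885 and 0.614 CPM in Acly M-KO (-0.57, SE 0.27, adjusted p = 0.172), and *Mcm2* and *Mcm4* had -0.30 (SE 0.17, adjusted p = 0.282) and -0.28 (SE 0.12, adjusted p = 0.121). *Cdc6* had -0.92 (SE 0.44, adjusted p = 0.173), at 4 to 10 counts a library in Acly M-KO. For *Mcm6* (-0.16, SE 0.09, adjusted p = 0.284 by edgeR) and *Gmnn* (-0.16, SE 0.16, adjusted p = 0.577) the genotypes overlapped. *Cdt1* was at 9.80, 10.1 and 8.34 CPM in control and at 13.1, 10.9 and 12.6 CPM in Acly M-KO, with a log2 fold change of 0.40 (SE 0.10, adjusted p = 0.0068 by edgeR), short of the fold limit. It was 0.35 without Acly M-KO replicate 1 and 0.30 without control replicate 4, and did not pass the adjusted p in either fit. *Gm20388* overlaps *Cdt1* on the same strand, and their counts could be shared.

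Of the 40 members, 6 passed the adjusted p alone, 3 higher and 3 lower, beside 13.9% of all genes (8.31% higher and 5.59% lower). Besides *Mcm3*, *Mcm5* and *Cdt1* these were *Cdkn1a*, *Ccne1* and *E2f1*. *Cdkn1a* was at 180, 193 and 195 CPM in control and at 293, 281 and 278 CPM in Acly M-KO, and *Ccne1* at 11.2, 12.2 and 13.4 CPM and 19.8, 17.2 and 18.7 CPM. Neither gene's groups overlapped, and the log2 fold changes were 0.59 (SE 0.06, adjusted p = 9.61e-08 by edgeR) and 0.58 (SE 0.09, adjusted p = 2.54e-05), which is 1.5-fold and 1.49-fold and under the fold limit. *E2f1* was at 16.6, 16.9 and 16.3 CPM in control and at 13.8, 13.6 and 14 CPM in Acly M-KO, apart, with a log2 fold change of -0.27 (SE 0.09). Its adjusted p was 0.05 after rounding, just under the limit, and it was lost in 11 of 18 alternative fits, the fits without any 1 of the 24 h libraries among them.

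In the groups of mitosis and DNA synthesis the smallest adjusted p after 24 h was that of *Top2a*. *Top2a*, given by library above, was apart after 24 h, lower in Acly M-KO, with a log2 fold change of -0.35 (SE 0.12, adjusted p = 0.0574). *Mki67* was apart in the other direction, with 26.3 to 27.6 CPM in control and 28.6 to 36.6 CPM in Acly M-KO (0.22, SE 0.10, adjusted p = 0.175). For *Plk1*, *Ccnb2* and *Cdc20*, with 0 to 13 counts a library, standard errors were 0.64 to 0.69, and a difference between the genotypes was not detectable at this depth. The inhibitors besides *Cdkn1a* had log2 fold changes of 0.07 to 0.23. Marker sums at this time were 1.11 to 1.5 CPM in Acly M-KO and 0.748 to 0.943 CPM in control for the progenitor list, with *Elane* at 0 in all 6 libraries, 3.7 to 4.47 and 3.44 to 4.69 CPM for the neutrophil list, and 4520 to 4630 and 6030 to 6330 CPM for the macrophage list. Without *Lyz2* the macrophage list summed to 3580 to 3770 CPM in Acly M-KO and 3630 to 3810 CPM in control, which overlapped, and by the adjusted p alone *Lyz2* and *Mertk* (-0.33, SE 0.06) were lower and none of the 8 higher. The T and NK cell list summed to 5.26 to 5.83 CPM and 8.91 to 10.1 CPM, with *Cd4* lower in Acly M-KO (-0.80, SE 0.11). Its other 6 genes summed to at most 0.29 CPM. The part of these markers in the result was not tested.

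**Figure D4:**
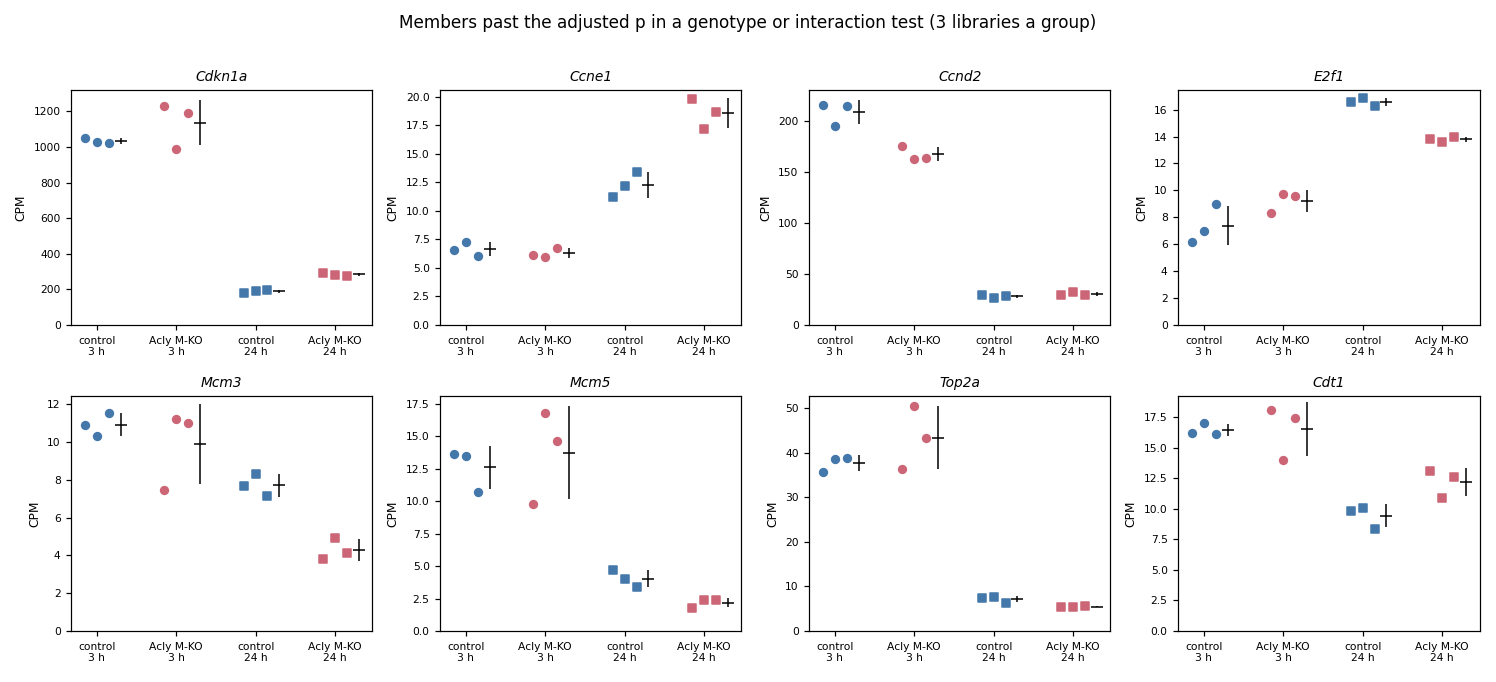
CPM by library (vertical axes, linear from 0) of the 8 members past the adjusted p in a comparison of the genotypes or in the interaction, with points for the 3 libraries of each group and a black cross and bar for the mean and SD. *Cdkn1a* and *Ccne1* are higher and *Mcm3*, *Mcm5* and *E2f1* lower in every Acly M-KO library than in any control library after 24 h LPS, and *Ccnd2* is lower in every Acly M-KO library after 3 h.

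Whether the genotype difference itself depended on the time of LPS was tested as an interaction. For 7 of 40 members it passed the adjusted p, 3 positive and 4 negative, beside 9.59% of all genes (4.88% and 4.71%). The effect of Acly M-KO was more positive after 24 h than after 3 h for *Ccne1* (0.67, SE 0.15, adjusted p = 0.00376 by edgeR), *Cdkn1a* (0.45, SE 0.08, adjusted p = 8.19e-04) and *Ccnd2* (0.44, SE 0.08, adjusted p = 7.08e-04). It was more negative for *Mcm5* (-0.96, SE 0.28, adjusted p = 0.0423), *Mcm3* (-0.70, SE 0.19, adjusted p = 0.0158), *E2f1* (-0.59, SE 0.15, adjusted p = 0.00897) and *Top2a* (-0.56, SE 0.15, adjusted p = 0.0186). Of the first 3, *Ccne1* and *Cdkn1a* passed the adjusted p by genotype after 24 h and *Ccnd2* after 3 h. For *E2f1* the genotype values were 0.33 (SE 0.12, adjusted p = 0.053) after 3 h and -0.27 after 24 h, and for *Top2a* 0.21 (SE 0.09, adjusted p = 0.119) and -0.35. The interaction of *Ccnd2*, *Ccne1* and *E2f1* passed in all 18 alternative fits, that of *Cdkn1a* in 17, *Mcm3* in 16, *Top2a* in 14 and *Mcm5* in 9.

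Outside the 40 members, 2 of the 113 pathway genes rose in Acly M-KO after 3 h LPS by both limits of edgeR's test (1.77%), a share near the 1.41% of all genes that rose. They were *Sesn2*, at 4.56, 6.82 and 5.63 CPM against 2.63, 3.60 and 2.34 CPM in control (0.99, SE 0.16, adjusted p = 6.49e-05), and *Cdkn2a*, with 11 to 20 counts a library against 2 to 5 (2.10, SE 0.52, adjusted p = 0.00587). Genes that rose by the same limits after 24 h included *Gadd45g*, a stress-induced growth arrest gene, at 13.1, 9.61 and 12.5 CPM against 5.70, 5.84 and 7.15 CPM (0.88, SE 0.16, adjusted p = 0.00131), and *Cdkn1c* (the inhibitor p57), at 12.1, 13.6 and 13.2 CPM against 8.24, 7.67 and 7.16 CPM (0.77, SE 0.11, adjusted p = 7.31e-06). The groups of these 4 genes were apart in these comparisons. The interaction passed the adjusted p in 17 of the 113 (15%), 10 positive (8.85%) and 7 negative (6.19%), beside 9.59%, 4.88% and 4.71% of all genes.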

How the data were processed

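BMDMs of control and Acly M-KO mice were sequenced after 3 h and 24 h LPS. From strand-specific mRNA libraries, the authors aligned reads to mm10 with STAR 2.5.2b and summed raw tags with HOMER, and CASAVA 1.8.2 is named in the submitters' processing notes. The deposited values are whole-number counts per RefSeq transcript, without normalization. The strand and isoform settings of the counting are not given in the sources used here, so reads of antisense or overlapping genes may be shared, as for *Ccna2* with *Exosc9*, *Cdk4* with *Tspan31*, *Mcm7* with *Cops6* and *Top2a* with *Gm23451*.

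Samples were grouped by the genotype and time in their labels. Of 35745 transcripts, 35628 were given a symbol through RefSeq and GENCODE tables. Counts of 12 libraries were normalized by TMM, filtered with filterByExpr (19621 transcripts of 11942 genes), and fitted with 4 group means by edgeR 4.0.16's robust quasi-likelihood test in R 4.3.3 (limma 3.58.1), with Benjamini-Hochberg adjustment over transcripts. Changed genes passed an adjusted p of 0.05 and a log2 fold change of 0.75, the interaction the adjusted p only. The standard error is the size of the log2 fold change over the root of F. The scripts were tested on simulated data. Total counts differed up to 59577343 in 1 control library at 24 h, whose values carry less counting error, and 1 count was 0.0153 CPM there. Alternatives were all 13 libraries, DESeq2 1.42.0 or its size factors, no filter, 1 transcript per gene, a replicate block, each library left out, and other limits.

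Any member could be named, with full statistics for those changed in a genotype comparison or the interaction and up to 3 per role group and contrast by size. Pathway genes outside the members were named when changed by genotype, or as up to 3 per direction by size over time, except 1 gene that is not reported here. *Adgre1*, *Lyz2*, *Mertk*, *Fcgr1*, *Cd14*, *Cd4*, *Dcn*, *Kit*, *Ly6g*, *Mpo* and *Elane* come from the marker lists and were named after their values were seen. The B cell list summed to 0.298 to 1.05 CPM. The members and lists were chosen with earlier results of these data known. Replicates of a group differed beyond sampling noise, with a chi-square of 2.64 to 11.6 per degree of freedom. CPM are not divided by length, so levels of different genes are not comparable.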

Additional observations from a re-analysis of the deposited data

Results flagged for a closer look

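The effect of Acly M-KO differed between 24 h and 3 h LPS, by a test of the interaction, in 7 of 40 members (17.5%), beside 9.59% of all genes. On the log2 scale the difference was 0.67 for *Ccne1*, 0.45 for *Cdkn1a*, 0.44 for *Ccnd2*, -0.96 for *Mcm5*, -0.70 for *Mcm3*, -0.59 for *E2f1* and -0.56 for *Top2a*. Of 18 alternative fits, *Mcm5* passed the adjusted p in 9, *Top2a* in 14, *Mcm3* in 16, *Cdkn1a* in 17 and the others in all.

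In control 24 h replicate 1, which entered no comparison, 54 counts fell on 13 of the 40 members, and 4 members held more than the 3 counts that a count of 0 allows. They were *Cdkn1a* with 26 counts, *Cdk6* with 5, *Mki67* with 5 and *Mcm4* with 4. At its depth, the mean level of the other control libraries at 24 h would give 7.18 counts of *Cdkn1a*, and that of the control libraries at 3 h 32.4. For *Cdk6* these numbers are 3.48 and 8.12, for *Mki67* 1.02 and 4.06, and for *Mcm4* 0.293 and 0.422.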

How the results depend on the processing

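Of 100 alternative counts of changed members, 92 stayed within 1.5 times the reported count and 8 did not. Among alternative values of single members, 674 kept their sign and their side of the adjusted p limit. A further 34 kept their sign and no longer passed the adjusted p. With the adjusted p alone, 1 member differed by genotype after 3 h and 6 after 24 h. With a log2 fold change beyond 1, 0 members changed by genotype after 24 h in edgeR's test, where 12 (30.0%, beside 26.3% of all genes) had an unadjusted p under 0.05 and DESeq2 at the limit of 0.75 gave 2. With each library left out in turn, changed members numbered 0 to 0 by genotype after 3 h and 1 to 2 after 24 h. They numbered 32 to 34 over time in control, 31 to 33 over time in Acly M-KO, and 4 to 8 in the interaction. The count by genotype after 24 h was 1 without Acly M-KO 24 h replicate 1 or 3 or control 24 h replicate 2 or 3. The interaction count was 4 without Acly M-KO 24 h replicate 1. The cause was not tested, and fewer samples enter these fits. With all 13 libraries the 5 counts were 0, 2, 34, 31 and 6, and the interaction of *Cdkn1a* (0.42) was lost. Deviations of same-numbered libraries from their group means had correlations of -0.051 to 0.099. Differently numbered libraries were not set beside them, so these values cannot show whether the numbers pair libraries. With the replicate number as a block the counts were 0, 2, 32, 31 and 7, and within each genotype 32 in control and 31 in Acly M-KO. Under the block *Cdt1* after 24 h (0.26) no longer passed the adjusted p. Depth limits *Cdc6*, *Plk1*, *Cdc20* and *Ccnb2* most, and the shallow control library most of all.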
